A study of Mus musculus with 24 samples.

Results

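Whole lungs of Scnn1b-Tg mice were compared between postnatal day (PND) 3 and PND 0, the day of birth, when the mice were less than 24 hours old. The members are the 6 arrays titled Scnn1b-Tg at these ages, 3 at each age, out of 24 whole-lung arrays in the series. Scnn1b-Tg mice carry the beta subunit of the epithelial sodium channel under the control of a club cell promoter, so the transgene is driven in the secretory cells of the conducting airways and in no other lung cell by design. The other groups of the series are wild-type (WT) littermates at the same ages and both genotypes at PND 10 and PND 42, with 3 arrays in each of the 8 groups. All mice were male, on the C57Bl/6N Tac strain background, specific-pathogen-free, and the labels name no treatment. Each of the 6 arrays held pooled RNA of the left lobe, so an array is a pool and not an animal. Their labels list 2 animal numbers each, whereas the study's methods give pools of 3 mice. The labels number the pools as biological replicates. The SE and p-values below rest on the spread between pools within all 8 groups of the series, not within these 6 arrays alone.

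The epithelial sodium channel draws sodium, and with it water, from the airway surface into the tissue. In this model its over-activity dries the mucus layer, which then adheres and blocks the airways in the first days of life. The same days are a period of change in any newborn lung. Fluid is absorbed, air breathing begins, macrophages settle in the airspaces, and the saccules of the birth lung prepare to be divided into alveoli by growing septa. The mouse is therefore studied here across a change that all newborn lungs pass through, and the WT littermates give the level of that change without the transgene.

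The transgene gave a high Scnn1b value at both ages. Scnn1b read 10.94, 10.91 and 10.58 on the log2 scale on the 3 PND 0 arrays and 10.42, 10.65 and 10.04 on the 3 PND 3 arrays. WT means were 7.77 at PND 0 and 7.08 at PND 3, and no Scnn1b-Tg array came near them. The change from PND 0 to PND 3 in Scnn1b-Tg lung was -0.44 ± 0.26 (SE), with a limma adjusted p of 0.16, and was not called. Lung markers were present at both ages. Means moved from 13.05 to 13.74 for Sftpc of alveolar type II cells, from 12.21 to 12.94 for Scgb1a1 of club cells, from 10.96 to 11.05 for Ager of type I cells and from 9.38 to 8.83 for Pecam1 of endothelium. Median values of the 24 arrays lay between 4.79 and 5.0.

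Of 19938 genes with a probe set of their own, 412 (2.07%) rose and 1352 (6.78%) fell in Scnn1b-Tg lung, or 8.85% in all, where called means a limma adjusted p of at most 0.05 and a change of at least 2-fold. The same rule in WT lung called 375 genes (1.88%) higher and 1400 (7.02%) lower. Percentages of the gene lists below are to be read beside the 2.07% of all genes that rose and the 6.78% that fell. The genes that rose did so by a median of 1.19 on the log2 scale (2.29-fold), and those that fell changed by a median of -1.29 (2.44-fold), beside a median of 0.07 over all genes. Counted over the 21789 probe sets, 493 (2.26%) rose and 1743 (8%) fell, 10.3% in all, so that 78% of calls were falls. In WT lung 9.75% of probe sets were called, 1.96% higher and 7.79% lower. That share depended on the scaling. With quantile normalization repeated, 851 rose and 1119 fell (56.8% falls), and with each array's median subtracted, which shifted the median of all genes to 0.21, 787 rose and 1276 fell (61.9% falls). In a piece of whole lung, fewer cells of a type and less RNA per cell cannot be told apart.

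**Figure D1:**
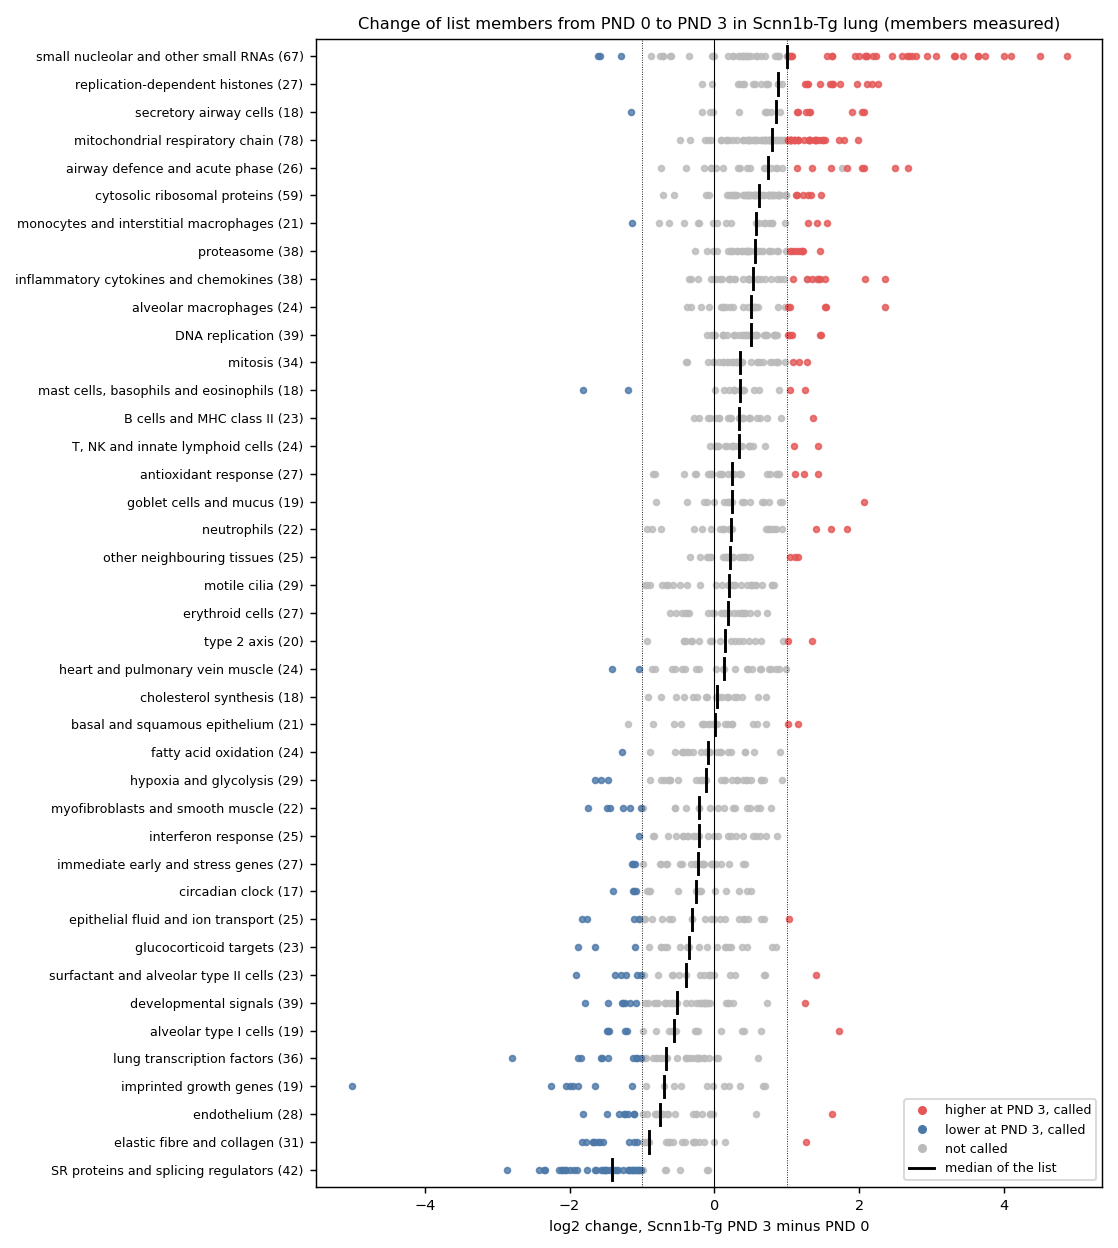
Log2 change from PND 0 to PND 3 in Scnn1b-Tg whole lung for the members of the gene lists (1 point per gene, with a black line at the median of the list). The microRNA genes and the olfactory and vomeronasal receptors are not drawn. The splicing regulators lie at a median of -1.41, the small RNAs at 1.00, the replication-dependent histones at 0.88 and the secretory airway genes at 0.85, against 0.07 for all genes.

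Small non-coding RNAs held the largest rises of this interval. These RNAs do their work in the nucleus and nucleolus or as parts of RNA-protein machines: small nucleolar RNAs guide the chemical modification of ribosomal RNA, RNase P and RNase MRP cut precursor RNAs, and Y RNAs bind the Ro protein. Of 67 measured members 32 rose (47.8%) and 3 fell (4.5%), with a median of 1.00, whereas 28 rose and 2 fell in WT lung. By gene type 23 of 53 snoRNA genes rose (43.4%) and 3 fell (5.66%).

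Rnu3a, the U3 RNA that acts early in ribosomal RNA processing, read 4.36, 4.34 and 4.12 at PND 0 and 8.81, 8.6 and 7.67 at PND 3. The groups were far apart and the third PND 3 pool was the lowest of its age. The rise was 4.09 ± 0.57 (SE), 17.0-fold, with an adjusted p of 5.02e-06, and was 4.23 in WT lung. Rny1 read 6.01, 5.55 and 5.80 at PND 0 and 9.93, 9.98 and 9.43 at PND 3, a rise of 4.0 ± 0.55. Snora69, a snoRNA of the class that guides pseudouridylation, went from 4.17, 4.25 and 4.0 to 8.37, 8.17 and 6.80. Here too the groups did not overlap, which was a condition for naming these genes and held in this direction for 33.8% of all probe sets. Again PND 3 replicate 3 was lowest. Snora23 rose by 3.44 ± 0.58 and Snord22 by 3.73 ± 0.41, and Snord15b rose by 3.64 ± 0.51. Rmrp, the RNA of RNase MRP, was already bright at birth with 9.83, 9.81 and 9.57 and reached 12.80, 12.48 and 11.92. Rpph1, the RNA of RNase P, went from a mean of 10.41 to one of 12.40.

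The mean over the 67 small RNAs was 6.05, 6.00 and 5.72 on the PND 0 arrays and 7.49, 7.36 and 6.83 on the PND 3 arrays, so that the third array was lowest at each age. The part of that array difference in the list's change was not tested, nor was the recovery of small RNAs when the RNA was prepared. Leaving out single arrays did not take the call from Rnu3a, Rny1, Snora69, Snora23, Snord22 or Snord15b. The 3 members that fell were Snord14e (-1.61), Snord37 (-1.59) and Snord53 (-1.29), all of the class that guides ribose methylation. They were looked at after their values were seen. At PND 10 6 of the 67 had fallen again, where 0.271% of all probe sets fell from PND 3 to PND 10. Among the 6 were Snora69, which was down to a mean of 4.46, and Snora23, which was down to 6.28. Rmrp and Rpph1 stayed high, with means of 11.91 and 11.82.

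**Figure D2:**
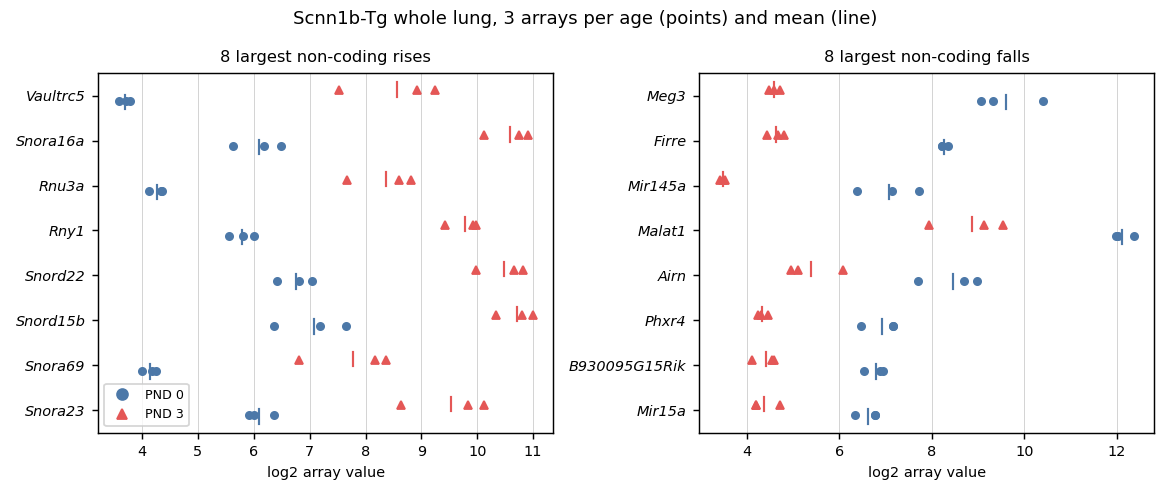
Log2 array values of the 8 non-coding genes with the largest rise and the 8 with the largest fall among called genes whose PND 0 and PND 3 arrays do not overlap, in Scnn1b-Tg whole lung (points, arrays, and lines, means of 3). PND 3 replicate 3 gives the lowest PND 3 value of Rnu3a (7.67) and Malat1 (7.93).

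Some long non-coding RNAs fell steeply. Of 675 genes with this type in RefSeq 25 fell (3.70%, against 6.78% of all genes) and 2 rose (0.3%, against 2.07%), with a median of 0.11. The risers were AW112010 (3.18) and Vaultrc5, which was also counted among the small RNAs above. Meg3, an imprinted RNA expressed from the maternal copy, read 10.40, 9.32 and 9.07 at PND 0 and 4.58, 4.48 and 4.71 at PND 3. It fell by 5.01 ± 0.27 on the log2 scale, which is 32.1-fold, with an adjusted p of 8.13e-11. Malat1, an abundant RNA of nuclear speckles, where splicing factors are stored, read 12.02, 12.36 and 11.97 and then 9.53, 9.13 and 7.93. It fell by 3.25 ± 0.30. Airn, an imprinted RNA transcribed across the Igf2r gene, read 7.71, 8.70 and 8.97 and then 4.95, 6.08 and 5.11, a change of -3.08 ± 0.29. The change of Airn in WT lung was -1.78, and the difference between the intervals, -1.30, had an adjusted p of 0.998. Firre, an X-linked RNA of nuclear organisation, was even across pools, at 8.21, 8.21 and 8.35 and then 4.67, 4.81 and 4.44.

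MicroRNA genes were called about as often as other genes or less. The arrays read the primary transcript or hairpin locus and not the mature microRNA. Of 297 measured genes 15 fell (5.05%, against 6.78% of all genes) and 4 rose (1.35%, against 2.07%), with a median of 0.10, beside 10 falls and 2 rises in WT lung. Most of the class was dim: 237 of the 297 had means below 5 on the log2 scale at both ages, and 13 of the 15 that fell were below 5 at PND 3. The mature strands of the genes whose values are given next are printed here from RefSeq (GRCm38.p6), 5′ to 3′, with the seed (bases 2 to 8), the part that pairs with target messages, in capitals.
miR-126a-3p: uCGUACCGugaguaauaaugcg
miR-15a-5p: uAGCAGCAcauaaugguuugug
miR-181b-5p: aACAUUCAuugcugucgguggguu
miR-23a-3p: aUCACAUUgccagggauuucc
miR-27a-3p: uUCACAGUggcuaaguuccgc
miR-99a-5p: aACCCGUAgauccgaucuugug
miR-144-3p: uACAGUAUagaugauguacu
miR-6516-5p: uUUGCAGUaacagguguggaca

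Each of these 8 strands has a seed of its own. Mir145a, a microRNA gene of smooth muscle whose strands are not shown, read 6.38, 7.14 and 7.73 at PND 0 and 3.53, 3.49 and 3.42 at PND 3. It fell by 3.60 ± 0.23, with an adjusted p of 5e-10. Mir143, which is transcribed with Mir145a, fell by 1.98 ± 0.17. Mir15a, from a cluster known for restraint of the cell cycle, read 6.77, 6.77 and 6.33 and then 4.73, 4.20 and 4.20. Mir181b-1 read 5.58, 5.79 and 5.38 and then 3.53, 3.63 and 3.48. Mir23a and Mir27a are neighbours within one primary transcript on chromosome 8, the printed strands lying at chr8:84208563-84208583 and chr8:84208727-84208747 on the plus strand. Their changes were of one size, -1.49 ± 0.10 for Mir23a and -1.51 ± 0.19 for Mir27a. Mir99a fell by 1.28 ± 0.12.

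Mir126a is a microRNA gene of endothelial cells that lies within Egfl7, and the strand printed above maps to chr2:26591402-26591423 on the plus strand. It read 4.82, 5.13 and 5.35 at PND 0 and 3.4, 3.26 and 3.35 at PND 3 in Scnn1b-Tg lung, with 4.10, 4.34 and 4.35 and then 3.51, 3.37 and 3.36 in WT lung. All 3 Scnn1b-Tg pools were above all 3 WT pools at birth, and the genotypes overlapped at PND 3. The change was -1.77 ± 0.11 in Scnn1b-Tg and -0.85 in WT lung. The difference of -0.91 had the lowest adjusted p of any gene, 0.147, and was not called. Without the first PND 0 pool of Scnn1b-Tg the difference was -1.05 with an adjusted p of 0.00509.

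The 4 microRNA genes that rose were Mir6516, Mir666, Mir320 and Mir144. Mir6516 read 6.11, 6.21 and 5.78 and then 8.28, 8.01 and 7.50, a rise of 1.89 ± 0.43. Mir144, a microRNA gene of red cell precursors, read 4.23, 3.95 and 3.95 and then 5.46, 4.82 and 5.06, a rise of 1.07 ± 0.21 that was not called without PND 3 replicate 1 (0.89). No array of one age overlapped the other for either gene, where 33.8% of all probe sets were likewise higher at PND 3 without overlap. In the erythroid list, 0 of 27 measured members were called, with a median of 0.19. The list's mean lay between 5.10 and 5.17 on the PND 0 arrays and between 5.07 and 5.35 on the PND 3 arrays. Hba-a1, Hbb-bs and Ahsp were not analysed here.

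The imprinted growth genes gave falls and no rise. These genes are expressed from 1 parental copy, and many drive or restrain growth before weaning. Of 19 measured members 8 fell (42.1%) and 0 rose, with a median of -0.70, and 8 fell in WT lung. Plagl1, a zinc finger regulator of the imprinted network, read 8.94, 9.02 and 9.05 at PND 0 and 6.98, 7.03 and 7.01 at PND 3. The pools of each age were nearly level, and the change was -2.0 ± 0.14 with an adjusted p of 1.33e-09. Zim1 went from 6.56, 6.63 and 6.61 to 4.75, 4.44 and 4.48. Igf2r, the receptor that clears insulin-like growth factor 2, read 9.15, 9.4 and 9.17 and then 7.65, 7.24 and 6.97. Peg3 changed by -2.25 ± 0.22 and Grb10, an adaptor that dampens insulin signalling, by -1.14 ± 0.11. Igf2 itself was at 7.97, 7.75 and 7.96 and then 7.45, 7.31 and 7.54, a change of -0.46 with an adjusted p of 0.0539, and it was called lower at PND 10, by -1.40 against PND 3.

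One imprinted interval could be followed along the chromosome. From Dlk1 to Dio3 (GRCm38.p6, chr12:109452485-110281097) 47 of 103 annotated genes were measured, 40 of them microRNA genes. In this interval 7 of the 47 fell and 1 rose, where 6.78% of all genes fell and 2.07% rose. Dlk1, a Notch ligand relative of immature cells, read 10.32, 8.08 and 8.09 at PND 0 and 6.89, 6.92 and 7.0 at PND 3. The first PND 0 pool stood above the other two at Dlk1 and also at Meg3 and at Rian, which read 5.83, 4.83 and 4.77. The changes were -1.89 ± 0.44 for Dlk1 and -1.65 ± 0.33 for Rian. Rtl1, with means of 3.73 and 3.87, and Dio3, with 3.84 and 3.67, were dim at both ages and not called.

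Of the 40 microRNA genes in that interval 4 fell and 1 rose, where 5.05% of all 297 microRNA genes fell and 1.35% rose. Mir679, Mir382, Mir665 and Mir329 changed by -1.49, -1.38, -1.09 and -1.07. Without PND 0 replicate 1, the pool with the high Dlk1 value, Mir382 (-1.04) and Mir329 (-0.82) were not called, nor was Mir329 without PND 3 replicate 2 (-0.98). Mir666 lies between Mir679 and Mir543, 264.6 kb from the Dlk1 start, and read 4.8, 4.53 and 4.53 and then 5.95, 6.02 and 5.82. It rose by 1.31 ± 0.21 with an adjusted p of 2.90e-05. The mature strands of Mir679 and Mir666, neighbours with opposite change, are printed here in the same form.
miR-679-5p: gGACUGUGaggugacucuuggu
miR-666-5p: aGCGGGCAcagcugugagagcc

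Regulators of splicing were the group with the largest share of falls. SR proteins and their partners choose exons and move between nuclear speckles and transcribed genes. Of 42 measured members 36 fell (85.7%) and 0 rose, the median was -1.41, and 24 fell in WT lung. In 39 of the 42 every PND 3 array was below every PND 0 array, where 27.9% of all probe sets were. Srrm2, a scaffold of the speckle, read 9.43, 9.97 and 9.70 at PND 0 and 7.28, 7.49 and 7.06 at PND 3. It fell by 2.42 ± 0.13, with an adjusted p of 8.13e-11. Son, the other scaffold of the speckle, read 9.66, 10.14 and 9.97 and then 7.86, 7.71 and 7.19. The ages were well apart for both.

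Ddx17, an RNA helicase that acts in splicing, changed by -2.36 ± 0.16 and Nktr, a cyclophilin with an SR domain, by -2.11 ± 0.15. Leng8 read 8.36, 8.31 and 8.41 and then 5.85, 5.59 and 5.04, a change of -2.87 ± 0.23. The cyclins Ccnl1 and Ccnl2, which partner a kinase of splicing, changed by -2.04 and -1.90. Some members stayed close to their level at birth. Srsf3 read means of 10.87 and 10.76, Tra2b read 10.05 and 9.96, and neither was called, with adjusted p values of 0.616 and 0.493. The members not called were Ddx5, Srsf10, Ptbp1, Tra2a, Tra2b and Srsf3. With quantile normalization repeated 30 of the 42 were called lower, and with array medians subtracted 28 were.

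**Figure D3:**
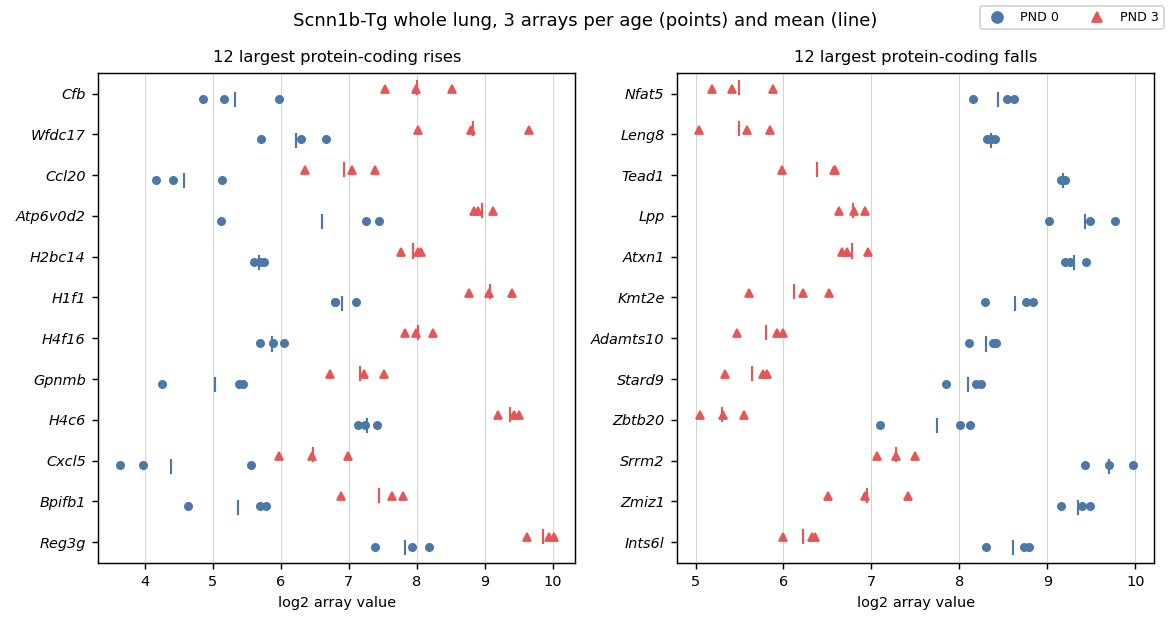
Log2 array values of the 12 protein-coding genes with the largest rise and the 12 with the largest fall among genes whose PND 0 and PND 3 arrays do not overlap, in Scnn1b-Tg whole lung (points, arrays; lines, means of 3). PND 0 values spread most for Atp6v0d2 (5.12 to 7.44) and Cxcl5 (3.64 to 5.56), while the 3 PND 0 values of Tead1 lie between 9.15 and 9.20.

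The largest protein-coding falls included transcription factors, a chromatin reader and genes of other kinds. Nfat5, a transcription factor activated by hypertonic conditions, read 8.16, 8.54 and 8.62 at PND 0 and 5.88, 5.41 and 5.19 at PND 3. The ages were apart by more than 2 on the log2 scale between the nearest arrays. The change was -2.94 ± 0.15 (7.69-fold, adjusted p 4.52e-11), with -2.42 in WT lung and an interval difference of -0.52 whose adjusted p was 0.998. Tead1, the DNA-binding partner of the YAP coactivator of the Hippo pathway, read 9.18, 9.20 and 9.15 and then 6.59, 6.57 and 5.98. It fell by 2.80 ± 0.22. Kmt2e, a chromatin reader, changed by -2.51 ± 0.20 and Zbtb20, a zinc finger repressor, by -2.44 ± 0.27. Zmiz1 changed by -2.40 ± 0.18, and Atxn1 changed by -2.52 ± 0.23. Others with changes of this size were the focal adhesion protein Lpp (-2.64 ± 0.22), the extracellular protease Adamts10 (-2.50 ± 0.19), the Integrator subunit relative Ints6l (-2.38 ± 0.15) and the kinesin-like Stard9 (-2.46 ± 0.17).

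Genes that fell were long and genes that rose were short. The span of a gene, from start to end in the RefSeq annotation, had a median of 19.2 kb over 18556 protein-coding genes, 76.3 kb over the 1299 that fell and 6.5 kb over the 368 that rose. To keep dim genes from setting the shares, the genes were also grouped by span among the 10883 with a mean above 5 at either age. Under 5 kb 11.7% of 1202 genes rose and 1.5% fell. From 20 to 50 kb 1.5% of 3047 rose and 9.4% fell. Over 200 kb 0.6% of 529 rose and 34.6% fell. The median change went from 0.37 in the shortest group to -0.74 in the longest, and each group of longer span had a lower median than the one before it. These shares are a description over genes, which are not replicates, and span was not separated from gene function or signal level.

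**Figure D4:**
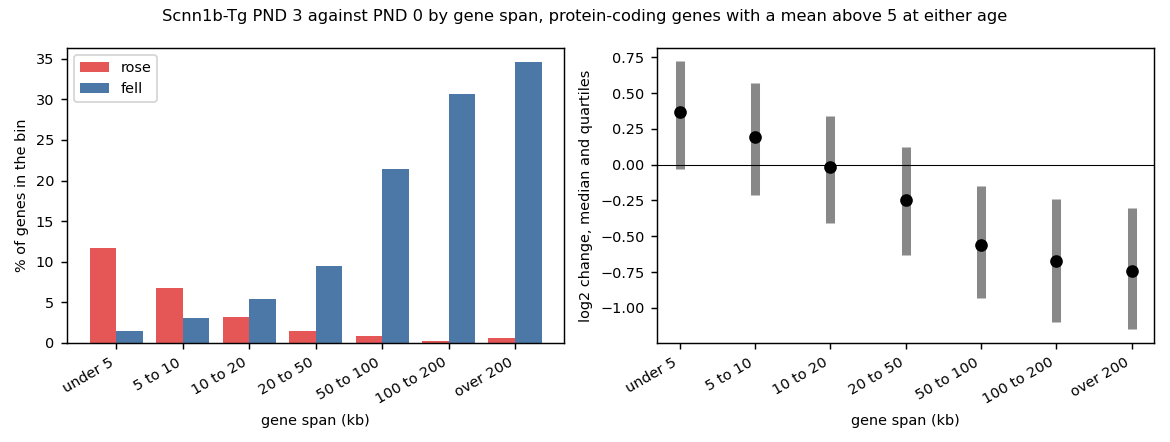
Share of protein-coding genes that rose or fell (bars, percent of the genes of each group) and their log2 changes in Scnn1b-Tg whole lung by gene span in kb, for 10883 genes with a mean above 5 at either age. The share that fell climbs from 1.5% under 5 kb to 34.6% over 200 kb, and the share that rose drops from 11.7% to 0.6%.

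Replication-dependent histone genes, which supply the packing proteins for newly copied DNA and give messages without a poly(A) tail, rose in part. Of 27 measured members 12 rose (44.4%) and 0 fell, with a median of 0.88, and 16 rose in WT lung. H2bc14 read 5.75, 5.69 and 5.61 at PND 0 and 7.76, 8.02 and 8.06 at PND 3. It rose by 2.26 ± 0.30 with an adjusted p of 3.20e-06. H1f1, a linker histone, read 6.80, 6.79 and 7.10 and then 8.77, 9.06 and 9.4, a rise of 2.18 ± 0.32. H2bc3 read 5.73, 5.58 and 5.58 and then 7.52, 7.63 and 7.63. The pools of each age were close together for all 3 genes, and no ages overlapped, as for 33.8% of all probe sets in this direction. H4f16 and H4c6 rose by 2.13 ± 0.34 and 2.11 ± 0.36.

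Other histone genes were not called, with means of 8.70 and 8.67 for H1f2 and 5.26 and 5.08 for H2bc21. These near-identical genes can share probe sequence, so values of single members are uncertain. Their start regions carried the usual elements of such genes. Within 250 bases before the start, on either strand, the letters TATAAA were in 14 of the 23 histone genes with a promoter entry (60.9%), against 14.3% of 27025 genes, and CCAAT was in 19 of them (82.6%), against 37.5%. Among the members that rose 6 of 11 held TATAAA and 9 of 11 held CCAAT, and among those not called 8 and 10 of 12 did. The 200 bases before the start of 3 members that rose are printed from RefSeq (GRCm38.p6), with both motifs, on either strand, in capitals; H1f1 lies at chr13:23763468-23763667 (+), H2bc3 at chr13:23746534-23746733 (+) and H1f5 at chr13:21780626-21780825 (-).
H1f1: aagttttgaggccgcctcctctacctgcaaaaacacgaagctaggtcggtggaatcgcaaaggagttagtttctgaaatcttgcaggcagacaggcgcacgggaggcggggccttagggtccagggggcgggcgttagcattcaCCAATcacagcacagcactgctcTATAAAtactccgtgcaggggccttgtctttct
H2bc3: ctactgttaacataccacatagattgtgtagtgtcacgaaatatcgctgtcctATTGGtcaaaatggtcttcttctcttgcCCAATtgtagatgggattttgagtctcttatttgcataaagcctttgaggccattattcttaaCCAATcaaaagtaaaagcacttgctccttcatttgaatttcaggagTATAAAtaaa
H1f5: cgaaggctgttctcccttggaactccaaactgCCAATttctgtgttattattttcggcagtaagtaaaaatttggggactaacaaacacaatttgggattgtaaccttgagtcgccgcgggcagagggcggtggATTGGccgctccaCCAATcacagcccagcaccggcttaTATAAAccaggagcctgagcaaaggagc

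Genes of DNA synthesis and mitosis rose in smaller numbers. In the DNA replication list 5 of 39 rose (12.8%) and 0 fell, with a median of 0.50, and 12 rose in WT lung. Rfc4, a subunit of the clamp loader, read 5.34, 5.28 and 5.13 at PND 0 and 6.55, 6.77 and 6.84 at PND 3. It rose by 1.47 ± 0.17. Prim1, the primase subunit, read 5.38, 5.46 and 5.66 and then 6.25, 6.97 and 7.63, with the first PND 3 pool lowest and the third highest. Gins1 and Ccne2 rose by 1.04 ± 0.23 and 1.01 ± 0.29, but Gins1 was not called without PND 3 replicate 3 (0.76), nor Ccne2 without PND 0 replicate 2 (0.96), PND 3 replicate 2 (0.92) or PND 3 replicate 3 (0.97). The 5 calls became 3 without PND 3 replicate 2 and 2 without PND 3 replicate 3. In the mitosis list 3 of 34, or 8.8%, rose (Cdk1, Pbk and Nuf2) and 0 fell, against 9 rises in WT lung. This count was 6 without PND 3 replicate 1 and 1 without PND 3 replicate 3. Cdk1, the kinase that starts mitosis, read 5.99, 5.84 and 5.79 and then 6.93, 7.09 and 7.45. No member of either list was called in the interval difference, so the unequal counts were not shown to differ between the genotypes.

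Genes of energy supply and protein turnover rose in part. Of 78 genes of the mitochondrial respiratory chain 29 rose (37.2%) and 0 fell, with a median of 0.80. Atp5e, a subunit of ATP synthase, read 7.19, 6.84 and 7.20 at PND 0 and 9.09, 9.05 and 9.05 at PND 3. Its rise of 1.99 ± 0.21 left the ages far apart. Ndufb8 of complex I went from 6.38, 6.05 and 6.18 to 7.95, 7.96 and 8.05. Cox6b1 of complex IV rose by 1.40 ± 0.15. Of 59 cytosolic ribosomal protein genes 6 rose (10.2%) and 0 fell, with a median of 0.61. Rpl41 read 10.04, 9.84 and 9.88 and then 11.38, 11.19 and 11.18. Of 38 proteasome genes 8 rose (21.1%) and 0 fell, with a median of 0.56. Psmb8, a subunit of the immune form of the proteasome, read 5.02, 5.06 and 4.95 and then 6.49, 6.46 and 6.45. In WT lung 24, 2 and 7 members of the 3 lists rose. The 6 ribosomal calls became 11 without PND 0 replicate 1 and 15 with array medians subtracted.

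Airway defence genes rose in part between birth and PND 3. Of 26 measured members 8 rose (30.8%) and 0 fell, with a median of 0.74, and 3 rose in WT lung. Cfb, complement factor B of the alternative pathway, read 4.86, 5.98 and 5.16 at PND 0 and 8.51, 7.98 and 7.53 at PND 3. This was the largest protein-coding rise without overlap between the ages, 2.68 ± 0.44 (6.40-fold, adjusted p 3.41e-05). Reg3g, a secreted lectin that kills Gram-positive bacteria, read 7.38, 8.17 and 7.93 and then 9.62, 9.94 and 10.01, a rise of 2.03 ± 0.27. Hp, haptoglobin, read 9.06, 9.84 and 9.47 and then 10.92, 11.03 and 10.46. Bpifb1 and Bpifa1, lipid-binding proteins of airway secretions, rose by 2.07 ± 0.35 and 1.13 ± 0.32. Saa3, an acute phase protein, was uneven, at 7.25, 9.54 and 6.29 and then 11.25, 10.43 and 8.88. The ages overlapped, and its rise of 2.49 ± 1.00 had an adjusted p of 0.0443 and was not called without PND 0 replicate 1 (2.27) or 3 (1.79) or without PND 3 replicate 1 (1.96) or 2 (2.37).

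Chemokine and cytokine genes also rose in part. Of 38 measured members 8 rose (21.1%) and 0 fell, with a median of 0.53, and 6 rose in WT lung. The count of 8 became 5 without PND 0 replicate 1 and 13 without PND 0 replicate 2. Ccl20, the chemokine that attracts cells bearing CCR6, read 4.17, 5.14 and 4.42 at PND 0 and 7.05, 7.39 and 6.36 at PND 3. It rose by 2.36 ± 0.50 (5.12-fold) with an adjusted p of 0.000628. The WT pools read 4.07, 4.81 and 4.19 and then 3.87, 6.74 and 3.76, so that the second WT pool at PND 3 lay within the Scnn1b-Tg range and the other two did not. The interval difference of 1.93 had an adjusted p of 0.998, and without that WT pool it was 2.90 with an adjusted p of 0.0208. That same WT pool was the highest of its group at Cxcl5 (7.72, against 4.11 and 4.09), Cfb (8.78, against 6.94 and 6.20) and Wfdc17 (9.88, against 7.66 and 7.01).

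Cxcl5, a chemokine for neutrophils made by epithelium, read 3.64, 5.56 and 3.98 and then 6.46, 6.98 and 5.97 in Scnn1b-Tg lung. Its rise of 2.07 ± 0.67 (adjusted p 0.014) was not called without PND 0 replicate 1 (1.70), PND 0 replicate 3 (1.87) or PND 3 replicate 2 (1.82). Csf2, the growth factor that matures alveolar macrophages, read 5.51, 5.99 and 5.64 and then 7.39, 6.88 and 6.70. Il18, a cytokine activated by inflammasomes, rose by 1.08 ± 0.16, though not without PND 0 replicate 1 (0.97) or PND 3 replicate 3 (0.96), and Ccl9 and Ccl6 rose by 1.46 ± 0.32 and 1.52 ± 0.34. Ccl11, which recruits eosinophils, rose by 1.35 ± 0.39. Several well-known members were not called. Il1b read 4.86, 6.84 and 5.51 and then 7.45, 6.77 and 6.84, with the ages overlapping, and the changes of Tnf and Il6 were 0.58 and 0.48. Cxcl2 stood at the edge, with a change of 1.42 and an adjusted p of 0.05 after rounding.

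Macrophage genes rose in part. Of 24 alveolar macrophage genes 5 rose (20.8%) and 0 fell, with a median of 0.51, and 3 rose without PND 3 replicate 1. Atp6v0d2, a proton pump subunit of macrophages and osteoclasts, read 5.12, 7.25 and 7.44 at PND 0 and 9.12, 8.90 and 8.84 at PND 3. The first PND 0 pool was far below the other two, which still lay below all PND 3 pools, and the rise was 2.35 ± 0.53, with 2.34 in WT lung. Ctsk, a lysosomal protease, read 4.79, 5.16 and 5.21 and then 6.85, 6.73 and 6.20. Gpnmb, a glycoprotein of lysosome-rich macrophages, rose by 2.13 ± 0.38. Wfdc17, named for the size of its rise and not a member of this list, rose by 2.61 ± 0.53. Cd68 rose by 1.04 ± 0.24, though not without PND 0 replicate 1 (0.78) or PND 3 replicate 1 (0.96). Chil3, the macrophage lectin Ym1, rose by 1.02 ± 0.37 and lost the call without PND 0 replicate 1 (0.92), PND 0 replicate 2 (1.04) or PND 3 replicate 1 (0.63). The defining surface markers moved less, from 4.93 to 5.48 for Siglecf, from 5.04 to 5.50 for Itgax and from 4.50 to 5.48 for Marco, and none was called.

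The means over the alveolar macrophage list were 6.04, 6.36 and 6.40 at PND 0 and 6.99, 6.76 and 6.67 at PND 3. The lowest PND 0 array was the first, at which the Dlk1 and Meg3 values were the highest, and its part in the list's change was not tested. Of 21 genes of monocytes and interstitial macrophages 3 rose (14.3%) and 1 fell (4.8%), with a median of 0.57. The member that fell, Nr4a1, did so by 1.14 ± 0.43 and was not called when PND 0 replicate 2 or 3 or PND 3 replicate 1 or 2 was left out (-0.97 to -1.11). Tyrobp, the signalling adaptor of myeloid receptors, read 6.30, 6.69 and 6.69 and then 8.26, 8.03 and 8.06. Fcgr3 rose by 1.28 ± 0.22 and Plac8 by 1.42 ± 0.24. H2-Ab1, an MHC class II chain, belongs to another list and read 5.40, 6.12 and 6.15 and then 6.86, 7.11 and 7.76. Of 23 genes of B cells and MHC class II only this 1 rose (4.3%) and 0 fell. That list had a median of 0.34, and 4 of its members rose in WT lung.

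Neutrophil genes split. Of 22 measured members 3 rose (13.6%) and 0 fell, with a median of 0.22, and 1 rose and 1 fell in WT lung. S100a8, a calcium-binding protein of neutrophils and monocytes, read 6.98, 7.85 and 7.74 at PND 0 and 9.72, 8.6 and 9.06 at PND 3. It rose by 1.6 ± 0.47 with an adjusted p of 0.00791, and its partner S100a9 rose by 1.82 ± 0.56. Clec4d rose by 1.41 ± 0.46. S100a9 lost the call without PND 0 replicate 1 (1.5) or PND 3 replicate 1 (1.55), and Clec4d without PND 3 replicate 1 (1.16), so that 1 member rose without that array. Without PND 3 replicate 2 the count was 5. Other neutrophil markers were not called. Ngp read 6.51, 7.69 and 8.07 and then 7.20, 5.68 and 7.19, Retnlg had means of 7.19 and 7.93, and Ly6g was dim at 4.13 and 4.36. The list's mean ran from 5.54 to 5.95 on the PND 0 arrays and from 5.88 to 6.47 on the PND 3 arrays, so the ages overlapped.

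Lymphoid and mast cell genes were mostly not called. Gzma, a granule protease of cytotoxic cells, read 4.67, 4.88 and 5.02 and then 6.35, 6.17 and 6.35, and Cd3g of the T cell receptor complex rose by 1.09 ± 0.27. These were the 2 calls (8.3%) among 24 genes of T, NK and innate lymphoid cells, of which 21 had means below 5 at both ages. Of 18 genes of mast cells, basophils and eosinophils 2 rose and 2 fell (11.1% each). Ear6 and Mcpt4 rose by 1.25 ± 0.23 and 1.04 ± 0.28, while Kit and Gata2, which endothelium and progenitors also use, changed by -1.82 ± 0.24 and -1.20 ± 0.22. Mcpt4 was not called without PND 0 replicate 1 (0.92) or PND 3 replicate 2 (0.87), nor Gata2 without PND 3 replicate 3 (-0.96). In the interferon response list 0 of 25 rose and 1 (4.0%) fell, the RNA sensor Ddx58, which was not called without PND 0 replicate 2 (-0.99).

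Secretory airway cells, in which the transgene is driven, had the largest median among the epithelial lists. Of 18 measured members 8 rose (44.4%) and 1 fell (5.6%), with a median of 0.85, and 2 rose and 1 fell in WT lung. Scgb3a1, a secretoglobin, read 6.95, 7.89 and 7.78 at PND 0 and 9.42, 9.43 and 9.45 at PND 3. It rose by 1.90 ± 0.34. Bpifb1 read 4.63, 5.70 and 5.78 and then 6.89, 7.80 and 7.63. Upk3a, a marker of a club cell subset, read 4.79, 5.13 and 5.22 and then 5.84, 6.53 and 6.56, and Scgb1c1 rose by 1.16 ± 0.19. Cyp2b10, a drug-metabolising enzyme, read 5.23, 6.26 and 6.49 and then 7.42, 7.32 and 7.16, with a change of 0.07 in WT lung and an interval difference of 1.24 at an adjusted p of 0.998. Its rise of 1.31 was 0.92, and not called, without PND 0 replicate 1. No ages overlapped for these genes, as for 33.8% of all probe sets in this direction. Fmo2, a monooxygenase of club cells, was the member that fell, by 1.16 ± 0.24 on the log2 scale, and was not called without PND 0 replicate 1 (-0.97) or PND 3 replicate 3 (-0.86). No member of the list was called in the interval difference, so here too the unequal counts were not shown to differ. The list's mean lay between 7.51 and 7.96 on the PND 0 arrays and between 8.56 and 8.79 on the PND 3 arrays.

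Mucus genes gave 1 call by PND 3. Of 19 goblet cell genes 1 rose (5.3%) and 0 fell, the riser being Bpifb1, and the rises were 2 without PND 0 replicate 2 and 3 without PND 3 replicate 1. In all, 13 of the 19 had means below 5 at both ages. Muc5ac, the gel-forming mucin of goblet cells, read 4.16, 4.38 and 4.37 and then 4.35, 4.38 and 4.69. Clca1, a secreted protein of goblet cells, read 3.98, 4.06 and 4.47 and then 4.20, 4.27 and 4.63. Both stayed among dim values. Muc5b, the other gel-forming mucin, read 4.62, 6.21 and 5.92 and then 6.55, 6.16 and 6.02, a change of 0.66 with an adjusted p of 0.138. Of 29 motile cilia genes 0 rose and 0 fell, with a median of 0.20, though 3 fell without PND 0 replicate 1.

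Ion transport genes gave more falls than rises. Of 25 measured members 1 rose (4.0%) and 4 fell (16.0%, against 6.78% of all genes), with a median of -0.31, and 0 rose and 10 fell in WT lung. With quantile normalization repeated 0 rose and 5 fell, and with array medians subtracted 1 rose and 2 fell. Wnk1, a kinase that controls chloride cotransporters, read 9.43, 9.68 and 9.62 at PND 0 and 8.0, 7.97 and 7.26 at PND 3. The change was -1.83 ± 0.17 in the gene's brightest probe set, whereas the study's own gene summary lists a larger fall of Wnk1. Slc26a9, a chloride channel of airway epithelium, read 7.44, 8.28 and 7.87 and then 6.17, 6.18 and 5.96, a change of -1.76 ± 0.23. Slc12a2, the cotransporter that loads chloride for secretion, changed by -1.04 ± 0.15, and Nedd4l, the ligase that removes the sodium channel from the surface, by -1.12 ± 0.20. Kcne3, a potassium channel subunit, rose by 1.03 ± 0.15. Without PND 3 replicate 3 Kcne3 (0.9), Slc12a2 (-0.85) and Nedd4l (-0.99) were not called, which left 2 falls, and Slc12a2 was also lost without PND 0 replicate 2 (-0.99). The sodium channel partners of the transgene were not called, and only Scnn1a was near the 2-fold threshold. Scnn1a read 10.10, 10.06 and 9.97 and then 9.47, 9.25 and 8.54, a change of -0.96 with an adjusted p of 0.00146, and Scnn1g changed by -0.59. In WT lung Scnn1a changed by -1.97 and Scnn1g by -1.09, and the interval difference of 1.01 for Scnn1a had an adjusted p of 0.998, or 0.0419 for a difference of 1.25 when arrays were weighted. Cftr changed by -0.97.

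Alveolar epithelial genes fell in part. Of 23 genes of surfactant and type II cells 6 fell (26.1%) and 1 rose (4.3%), with a median of -0.39. Abca3, the lipid pump of lamellar bodies, read 9.35, 9.72 and 9.43 at PND 0 and 8.28, 8.12 and 7.97 at PND 3. Hc, complement component C5, read 10.50, 11.32 and 11.02 and then 9.09, 8.92 and 9.09, a change of -1.91 ± 0.19. Muc1, Fasn and Slc34a2 changed by -1.29, -1.22 and -1.02, and Slc34a2 was not called when PND 0 replicate 1 or 2 or PND 3 replicate 2 or 3 was left out (-0.89 to -0.99). The riser was S100g, which read 6.6, 6.88 and 6.49 and then 8.43, 8.03 and 7.71. Of 19 type I genes 5 fell (26.3%) and 1 rose (5.3%), with a median of -0.56. Vegfa, the endothelial growth factor that type I cells secrete, read 8.6, 9.03 and 8.84 and then 7.31, 7.27 and 7.48. Lmo7 and Spock2 changed by -1.49 and -1.21, and Igfbp2 read 5.74, 5.88 and 5.66 and then 7.33, 7.55 and 7.54, a rise of 1.71 ± 0.25. Pdpn (0.64) and Aqp5 (0.40), the common markers of type I cells, were not called.

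Matrix genes had a lower median than either alveolar list. Of 31 genes of elastic fibre and collagen 11 fell (35.5%) and 1 rose (3.2%), with a median of -0.91, and 15 fell in WT lung. Fbn2, the fibrillin of early microfibrils, read 6.40, 6.71 and 6.63 at PND 0 and 4.72, 4.87 and 4.64 at PND 3, a change of -1.83 ± 0.11. The basement membrane collagens moved together. Col4a1 read 9.02, 8.86 and 8.67 and then 7.64, 7.09 and 6.5, and Col4a2, Col4a3 and Col4a4 changed by -1.65, -1.61 and -1.68. Col6a1, Col6a2 and Col6a3 changed by -1.18, -1.06 and -1.68, and the first 2 of these were not called without PND 3 replicate 3 (-0.98 and -0.84). Mfap5, a microfibril glycoprotein, rose by 1.27 ± 0.26. Eln, the elastin gene, read 10.87, 10.94 and 10.69 and then 10.27, 10.01 and 9.50, below the 2-fold threshold at -0.91. Of 22 genes of myofibroblasts and smooth muscle 6 fell (27.3%). Pdgfrb and Pdgfra, the receptors of pericytes and of septal myofibroblast precursors, changed by -1.75 ± 0.13 and -1.48 ± 0.24.

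Vascular genes fell in part. Of 28 endothelial genes 8 fell (28.6%) and 1 rose (3.6%), with a median of -0.75, and 10 fell in WT lung. Kdr, the main VEGF receptor, read 8.52, 9.4 and 9.27 at PND 0 and 7.56, 7.58 and 7.61 at PND 3. Flt1, Dll4, Cdh5 and Tek changed by -1.31, -1.19, -1.23 and -1.11. The riser was Gpihbp1, the capillary anchor of lipoprotein lipase, at 7.73, 7.60 and 7.63 and then 9.54, 9.27 and 9.01. Its rise of 1.62 ± 0.15 went with a change of 0.98 in WT lung. Mir126a, given above, is a gene of the same cell type.

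Genes that pattern the lung gave falls and 1 rise. Of 36 lung transcription factors 10 fell (27.8%) and 0 rose, with a median of -0.67. With quantile normalization repeated 6 fell, and 6 fell with array medians subtracted. Foxp1 and Foxp2, repressors of airway and alveolar development, read means of 7.95 and 6.62 at PND 0, and changed by -1.56 ± 0.16 and -1.47 ± 0.15. Tbx2, Tbx3 and Tbx5, T-box factors of the mesenchyme, changed by -1.13, -1.57 and -1.08. Tfcp2l1 read 8.47, 8.27 and 8.09 and then 7.04, 6.29 and 5.98. Zbtb16 was uneven, at 9.03, 6.57 and 7.96 and then 7.27, 5.89 and 4.76, and its fall of 1.88 was not called without PND 0 replicate 1 (-1.29) or PND 3 replicate 3 (-1.27). It was also not called when only the Scnn1b-Tg arrays of the compared ages were fitted (limma adjusted p 0.0596). Of 39 developmental signal genes 7 fell (17.9%) and 1 rose (2.6%). The falls were 4 with quantile normalization repeated and 6 with array medians subtracted. Notch1 read 7.76, 8.05 and 7.97 and then 6.40, 6.38 and 5.65, and its ligand Jag1 changed by -1.28. Ptch1, the hedgehog receptor, changed by -1.47, Fgfr2 by -1.08 (-1.0 and not called without PND 0 replicate 2) and Axin2, a target of Wnt signalling, by -1.24. Aldh1a2, which makes retinoic acid, rose by 1.24 ± 0.29, and was not called without PND 0 replicate 1 (0.91).

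Hormone, clock and metabolic genes were described by list. Of 23 glucocorticoid targets 3 fell (Hif3a, Crispld2 and Zbtb16; 13%, against 6.78% of all genes), with a median of -0.36, and 11 fell in WT lung. The 3 became 1 without PND 0 replicate 1 or PND 3 replicate 3 and 5 without PND 3 replicate 1. Of 17 clock genes 4 fell (Clock, Arntl, Per3 and Per2), or 23.5%, with a median of -0.26. With quantile normalization repeated 1 fell and the median was 0.01. With array medians subtracted 1 fell, and 7 fell without PND 3 replicate 1. Arntl was not called without PND 0 replicate 1 (-0.95), PND 3 replicate 2 (-1.0) or PND 3 replicate 3 (-0.98). All pools were collected at one time of day. The median of 29 hypoxia and glycolysis genes, -0.11, became 0.10 and 0.03 under the 2 other scalings, and that of 24 fatty acid oxidation genes, -0.10, became 0.04 and 0.05. The interferon list's median of -0.22 became 0.01 with quantile normalization repeated. For these lists no direction is given. Of 27 antioxidant genes 3 rose (11.1%): Gpx4, which read 9.34, 9.36 and 9.14 and then 10.34, 10.44 and 10.40, Gpx2 (1.42) and Gsta4 (1.24). Of 18 cholesterol synthesis genes 0 were called. Of 27 immediate early and stress genes 3 fell (Jun, Fos and Nr4a1), or 11.1%, and Jun not without PND 3 replicate 2 (-1.0). With quantile normalization repeated 1 of the 27 fell, and 0 fell with array medians subtracted.

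Markers of neighbouring tissue varied between pools. Of 24 genes of heart and pulmonary vein muscle 0 rose and 2 fell (Myh6 and Ttn), or 8.3% against 6.78% of all genes. Ttn was not called without PND 0 replicate 3 (-0.66). In this list 2 rose when PND 0 replicate 3, PND 3 replicate 1 or PND 3 replicate 2 was left out. Nppa, atrial natriuretic peptide, was high on the third array of each age, at 7.18 and 7.29, and 3.76 or lower on the other 4 arrays. Myh6 read 6.06, 6.76 and 7.51 and then 6.03, 5.10 and 4.95. Of 25 genes of other neighbouring tissues 3 rose (Upk3b and Lrrn4 of mesothelium and Cox7a1). Upk3b rose by 1.16 ± 0.21, and without PND 0 replicate 1 (0.96) only Cox7a1 of the 3 was called. The mean over this list was 4.84 to 4.98 at PND 0 and 5.19 to 5.24 at PND 3. Of 1192 olfactory and vomeronasal receptors, a set that lung is not known for, 3 rose (0.3%) and 0 fell, and 1159 had means below 5 at both ages. The count of 3 was 7 without PND 0 replicate 1 or PND 3 replicate 2. Their median change was 0.31, against 0.07 over all genes, 0.20 over genes with a mean level under 4 and 0.15 over those at 4 to 5.

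No gene was called in the interval difference, which subtracts the change in WT lung from the change in Scnn1b-Tg lung (0 of 21789 probe sets in limma, with 1034 or 4.75% at an unadjusted p below 0.05). After Mir126a the lowest p values belonged to Phxr4, Ces1d, Kcnmb2 and Gm10400. Ces1d, a carboxylesterase of lung, read 10.09, 9.94 and 10.21 and then 10.21, 10.29 and 9.68, a change of -0.02, with -0.94 in WT lung. Pdk4, the kinase that turns off pyruvate oxidation, read 7.47, 6.53 and 7.09 and then 7.40, 6.45 and 6.19, a change of -0.36, with -2.40 in WT lung. Cfap52, a protein of motile cilia, read 5.76, 5.94 and 5.89 and then 6.69, 7.22 and 6.90, with 0.11 in WT lung. The rise of Cfap52, 1.07, was not called without PND 3 replicate 2 (0.93). The difference was 0.92 for Ces1d, 2.04 for Pdk4 and 0.96 for Cfap52, each with an adjusted p of 0.866. An absence of calls with 3 pools per group does not show that the genotypes changed alike.

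The later arrays of the same genotype place this interval. From PND 3 to PND 10 in Scnn1b-Tg lung 178 probe sets rose (0.817%) and 59 fell (0.271%). Ccl20 was down to a mean of 5.0 at PND 10, a change of -1.93 with an adjusted p of 0.0347, and to 4.52 at PND 42. Cfb and Reg3g stayed high, with means of 8.63 and 10.31 at PND 10 and of 9.31 and 10.82 at PND 42. Bpifb1 rose again, by 1.74, to 9.18. Clca1, which was not called at PND 3, rose by 3.33 to a mean of 7.69 at PND 10 and read 11.11 at PND 42. Of the histone genes H2bc14 rose further by PND 10, and 15 of 27 fell from PND 10 to PND 42, an interval in which 3.38% of all probe sets fell and 1.79% rose. H1f1 was then back to a mean of 6.99. In the splicing list 0 of 42 were called in either later interval, with medians of 0.14 and 0.03.

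**Figure D5:**
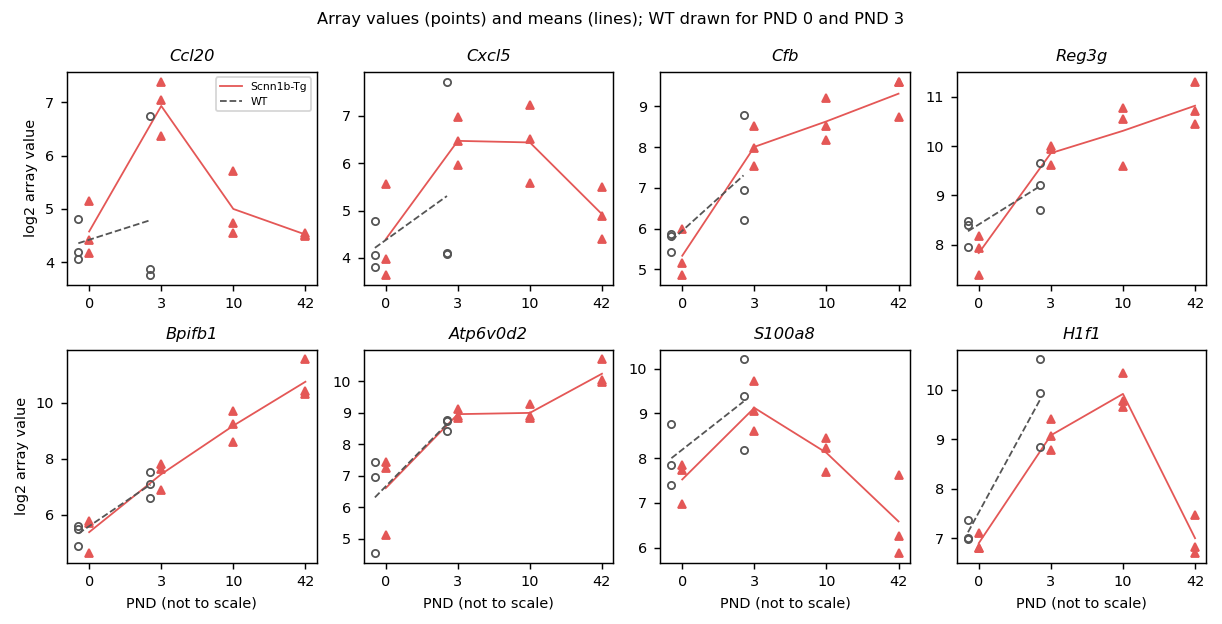
Log2 array values by age in days for 8 genes in Scnn1b-Tg whole lung at PND 0, 3, 10 and 42 and in WT at PND 0 and 3 (points, arrays; lines, means of 3), chosen after their values were seen. Ccl20 peaks at PND 3 (mean 6.93) and is at 5.0 by PND 10, Cfb stays at 8.63, and H1f1 rises to 9.92 at PND 10 and is back to 6.99 at PND 42.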

How the data were processed

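Total RNA of the left lobe was hybridised to Affymetrix whole-transcript arrays (Mouse Gene 1.0 ST), 3 per group, each a pool of mice. For its preparation the study's methods name the RNeasy Mini kit and an ammonium acetate precipitation. The deposited values are log2 intensities that the authors background-corrected with RMA, adjusted for GC content, quantile-normalized and summarised per gene in Partek (6.5 in the submitters' processing notes). They were used as deposited, and since array medians still differed, quantile normalization was repeated as an alternative. Array data have no read depth, and 3 pools per group limit the precision: the median SE of a change was 0.138.

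Of 35556 probe sets, 21789 named exactly 1 gene, and 12146 with no gene and 1621 with several were left out. Group means of all 8 groups were fitted with limma 3.58.1 in R 4.3.3 (eBayes, 16 residual degrees of freedom), with Benjamini-Hochberg adjustment over the 21789. A call needed an adjusted p of at most 0.05 and 2-fold. A gene was represented by its brightest probe set (19938 genes). The scripts were tested on simulated data. Gene types, spans, promoters and microRNA strands came from RefSeq tables on GRCm38.p6.

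The members and the gene lists were chosen with earlier results of these data known. Named genes were the 12 largest protein-coding and 8 largest non-coding changes each way without overlap, the 4 called members with the lowest p of each list, the 10 lowest p values of the interval difference, Scnn1b and the cell type markers. Further members were named after their values were seen. Deviations from the group means correlated between Scnn1b-Tg PND 0 and PND 3 pools of the same number (0.124, 0.166 and 0.172). For WT pools the values were -0.037, -0.038 and 0.066. Between Scnn1b-Tg and WT pools of the same number they were 0.299, 0.153 and 0.29 at PND 0 and -0.255, -0.022 and 0.083 at PND 3. Pools of unlike number gave -0.391 to 0.26 between the genotypes at PND 0. The labels do not say what a number shares, and the main fit held no pairing. The replicate number was a block only in alternatives. Alternatives were other scalings, array weights, a trended prior, other sets of rows and arrays, other fold thresholds, the replicate as a block and leaving out each array.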

Additional observations from a re-analysis of the deposited data

How the results depend on the processing

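Of 160 genes followed through the alternatives, 154 were called, and 38 of these lost the call under at least 1 alternative, while 0 reversed. The largest losses came with quantile normalization repeated (17 genes), array medians subtracted (14) and the third PND 3 array left out (13). Leaving out 1 array gave 2033 to 2462 calls in Scnn1b-Tg, 472 to 567 of them higher and 1544 to 1895 lower, and 0 to 2 calls in the interval difference, the 2 without Scnn1b-Tg PND 0 replicate 1 (Mir126a and Phxr4) and 1 without WT PND 3 replicate 2 (Ccl20). Array weights called 8 interval differences. With the replicate number as a block over all 24 arrays there were 2238 calls, 2236 of them shared with the main fit, which held no block. With this block WT gave 2127 calls. When only the 6 Scnn1b-Tg arrays were blocked (chosen after seeing the data) there were 2237 calls. The block changed no call of the genes followed here.

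With all 35556 probe sets tested, Scnn1b-Tg gave 4514 calls (1038 higher, 3476 lower) and WT 3546 (806 and 2740). With quantile normalization repeated the splits were 851 and 1119 in Scnn1b-Tg and 696 and 1038 in WT. With array medians subtracted 787 rose in Scnn1b-Tg. With no fold threshold the counts were 10772 (5406 and 5366) and in WT 10153 (4736 and 5417). At 1.5-fold they were 5657 (1938 and 3719) and in WT 5425 (1663 and 3762). The causes of these shifts under other scalings were not tested.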
